A study of Mus musculus with 3 samples.

Results

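The genes described here encode 3 hyperpolarization-activated, cyclic nucleotide-gated (HCN) channels, Hcn2, Hcn3 and Hcn4, together with Pex5l, the gene of the HCN auxiliary subunit TRIP8b. They were taken by symbol from the gene rows of the count files, which gave 4 members among 32532 listed genes. The RNA came from adult control mice with no treatment that carried an EGFP-tagged ribosomal protein L10a in the transgenic line Lypd1-EGFP-L10a OI82. Tagged polysomes from the dissected cortex-amygdala transition zone (CxA) were captured with anti-EGFP antibodies and their RNA was sequenced, a method called translating ribosome affinity purification. There was 1 group with 3 libraries, called replicates 1, 2 and 3 of that line. The tag is driven by Lypd1 regulatory DNA, so the libraries can mix all cell types of the dissection in which that DNA is active. Whether RNA of cells without the tag was also captured was not tested. Unpurified RNA was not analysed here, so levels are those in captured RNA and not enrichments.

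HCN channels sit in the plasma membrane as tetramers and open when the membrane becomes more negative, carrying the mixed sodium and potassium current known as Ih. Cyclic AMP binds their intracellular carboxy-terminal domain and eases opening, strongly in HCN2 and HCN4 and little in HCN3. In neurons Ih shapes the resting potential, the summation of dendritic inputs and rhythmic firing. TRIP8b binds the last residues of the channel and its cyclic nucleotide-binding domain, and it controls how many channels reach the surface and how they respond to cyclic AMP.

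Stretches of the channel genes for the pore and for the carboxy-terminal end are shown first. The stretches are coding sequence of GENCODE M21 transcripts on GRCm38, the assembly that mm10 names, written 5′ to 3′ along the coding strand. In the first set the 9 capitals are the codons of the selectivity filter, the narrowest part of the pore.
Hcn2, plus strand, chr10:79728932-79728991: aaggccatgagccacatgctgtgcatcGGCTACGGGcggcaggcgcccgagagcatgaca
Hcn3, minus strand, chr3:89150982-89151041: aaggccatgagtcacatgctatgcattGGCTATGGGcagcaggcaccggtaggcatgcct
Hcn4, plus strand, chr9:58855564-58855623: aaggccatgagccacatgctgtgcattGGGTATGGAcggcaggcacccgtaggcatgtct
Of these 60 bases Hcn2 and Hcn3 shared 48, Hcn2 and Hcn4 shared 50, and Hcn3 and Hcn4 shared 53.

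In the second set the capitals are the last 9 coding bases before the stop codon, the end of the channel that TRIP8b is known to grip.
Hcn2, plus strand, chr10:79735508-79735537: tctgcgcgctcgcgcctctctTCCAACTTG
Hcn3, minus strand, chr3:89147602-89147631: cccagaggtccccaaatttctGCCAACATG
Hcn4, plus strand, chr9:58860731-58860760: ccagtacgctccaaactgccgTCTAATTTA
Over these 30 bases the genes were less alike, with 15 shared between Hcn2 and Hcn3, 16 between Hcn2 and Hcn4 and 14 between Hcn3 and Hcn4. Of the 9 capitals Hcn2 and Hcn3 shared 7, Hcn2 and Hcn4 shared 6, and Hcn3 and Hcn4 shared 4. These are counts of bases and not of residues. The capitals of Hcn2 and Hcn4 both encode Ser-Asn-Leu, and those of Hcn3 encode Ala-Asn-Met.

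In the GRCm38 annotation Hcn2 (ENSMUSG00000020331.9) lies on chromosome 10, plus strand, from 79716634 to 79736108, with 3195 exon bases. Hcn3 (ENSMUSG00000028051.10) lies on chromosome 3, minus strand, from 89146074 to 89160196, with 4154 exon bases. Hcn4 (ENSMUSG00000032338.9) lies on chromosome 9, plus strand, from 58823412 to 58863175, with 6118 exon bases. Pex5l (ENSMUSG00000027674.16) lies on chromosome 3, minus strand, from 32949408 to 33143247. Its 12 annotated transcripts, 9 of them coding, together cover 8846 exon bases, while the longest single transcript has 4206. Of the Hcn3 exon bases 711, or 17.1%, also belong to Pklr, a pyruvate kinase gene on the opposite strand that held 10, 8 and 14 counts in replicates 1, 2 and 3. Pex5l shares 24 exon bases with the antisense gene 4930419G24Rik, which held 12, 10 and 26 counts, and 340 with the antisense gene Gm37459. The strand setting of the counting was not given in the sources used here, so reads on shared bases cannot be told apart.

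Counts assigned to genes came to 18526251 in replicate 1, 24690301 in replicate 2 and 8668527 in replicate 3. Levels are CPM, a gene's counts per 1000000 counts assigned to genes in its library, and where genes are compared with each other they are CPM per kb of annotated exon. Means are given ± SD (n = 3 libraries). Single-library intervals are exact Poisson 95% intervals and cover counting error only. All 8 neuron markers were at 1 CPM or more in each library, with summed levels of 9489 to 17399 CPM. Microglia markers summed to 20.3 to 39.7 CPM with 3 of 6 at 1 CPM or more in each library, and endothelial markers to 12.2 to 45.4 CPM with 2 of 4. Astrocyte markers were all present at that level, 6 of 6, and summed to 522 to 1176 CPM. Libraries differed: 5 cholinergic neuron markers summed to 81.9 CPM in replicate 1 against 3.77 and 2.999 CPM in replicates 2 and 3, none of them at 1 CPM or more in every library.

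All 4 members averaged at least 1 CPM and entered the test across genes. Pex5l was abundant, whereas the 3 channel genes lay below the median of the tested genes per kb of exon on the mean of the libraries. Hcn3 and Hcn2 spread widely between libraries in opposite directions, and Hcn4 was nearly level.

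Hcn2, which encodes a channel found throughout the brain and prominent in the thalamus, measured 0.918, 9.19 and 7.04 CPM in replicates 1, 2 and 3. These values came from 17, 227 and 61 counts. Replicate 1 was low, and its interval of 0.535 to 1.47 CPM did not overlap those of replicate 2 (8.04 to 10.5 CPM) and replicate 3 (5.38 to 9.04 CPM), which overlapped each other. The mean was 5.72 ± 4.29 CPM, and the highest library stood 10.02-fold above the lowest. Hcn2 was the only member below 1 CPM in any library.

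Hcn3, the family member whose channel responds little to cyclic AMP, measured 25.2, 5.55 and 11.997 CPM in replicates 1, 2 and 3, from 466, 137 and 104 counts. Replicate 1 was high and replicate 2 low, the reverse of Hcn2, and the 3 counting intervals (22.9 to 27.5, 4.66 to 6.56 and 9.80 to 14.5 CPM) did not overlap. The mean was 14.2 ± 9.99 CPM, with 4.53-fold between the highest and the lowest library, and without replicate 1 the mean was 8.77 CPM.

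Hcn4, the slow and strongly cyclic AMP-sensitive channel best known from the pacemaker of the heart, measured 5.99, 7.21 and 7.50 CPM in replicates 1, 2 and 3, from 111, 178 and 65 counts. The 3 intervals overlapped (4.93 to 7.21, 6.19 to 8.35 and 5.79 to 9.56 CPM). The mean was 6.90 ± 0.7997 CPM, and the highest library exceeded the lowest 1.25-fold.

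Pex5l, the auxiliary subunit gene, measured 111, 203 and 89.2 CPM in replicates 1, 2 and 3, from 2064, 5014 and 773 counts. Replicate 2 was high, and the intervals of the libraries (107 to 116, 197 to 209 and 83.0 to 95.7 CPM) did not overlap. The mean was 135 ± 60.4 CPM, with 2.28-fold between the highest and the lowest library. Of the 8 neuron markers 5 were highest in replicate 2 and 3 in replicate 1. Their sum was 11829, 17399 and 9489 CPM in replicates 1, 2 and 3, but most of it was the synaptic gene Snap25 at 7606, 13127 and 6317 CPM, and the other 7 summed to 4223, 4272 and 3173 CPM. Of the 6 glutamatergic markers 4 were highest in replicate 2, and their sum of 2732, 4284 and 2971 CPM was mostly the kinase gene Camk2a at 2182, 3677 and 2408 CPM, with 551, 607 and 563 CPM for the other 5. All 4 endothelial markers were also highest in replicate 2, with sums of 19.5, 45.4 and 12.2 CPM in replicates 1, 2 and 3. The part of these cell types in the Pex5l values was not tested.

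**Figure D1:**
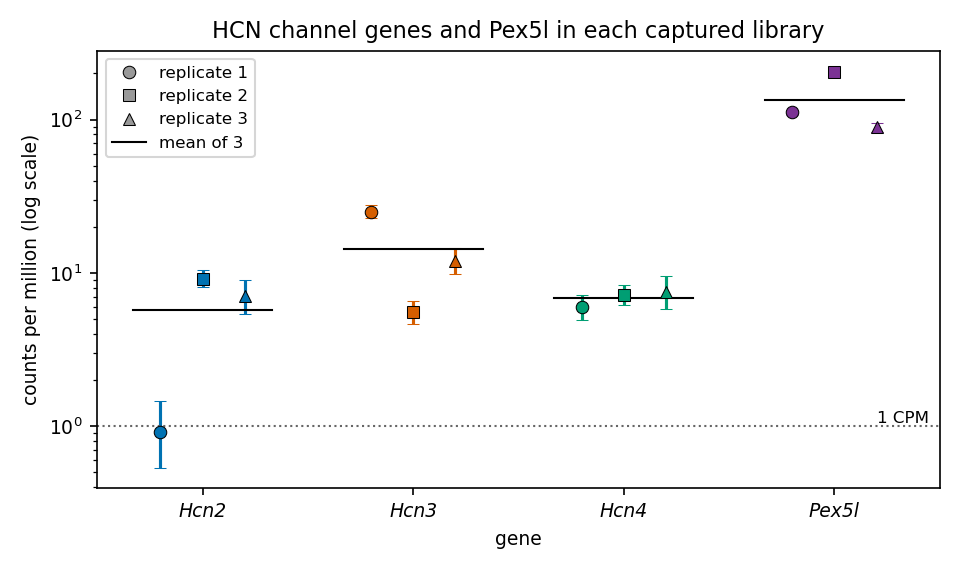
CPM (log axis) of the 4 genes in each library, with exact Poisson 95% intervals as bars and the mean of the 3 libraries as a black line. Hcn2 lies at 0.918 CPM in replicate 1 where Hcn3 peaks at 25.2 CPM, Hcn4 stays between 5.99 and 7.50 CPM, and Pex5l lies above 89 CPM in each library.

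Whether the spread exceeded that of other genes of like abundance was tested with edgeR's goodness-of-fit test over all genes that averaged at least 1 CPM. Of 15336 genes 32 were called, 0.209%, and 0 of the 4 members were among them. At an unadjusted p below 0.05 the test also held 0 members, against 7.82% of all genes. With a common dispersion for all genes it called 5.09% of genes and 0 members, and DESeq2 listed 0.137% of genes and 0 members as dispersion outliers. The Benjamini-Hochberg adjusted p from edgeR was 0.877 for Hcn2 and 0.876 for Hcn3. It was 0.805 for Pex5l and 0.999 for Hcn4. The differences between libraries in Hcn2, Hcn3 and Pex5l, although beyond counting error, thus did not pass as larger than the spread fitted for genes of their level. The SD of log2(CPM + 1) was 1.30 for Hcn2, larger than that of 93.7% of the tested genes, and 0.999 for Hcn3, larger than that of 83.4%. For Pex5l it was 0.610, larger than that of 57.0%. For Hcn4 it was 0.150, and 5.74% of the tested genes had a smaller one. Among tested genes at 0.5 to 2 times the mean CPM of the member, the median SD was 0.745 for Hcn2 and 0.574 for Hcn3. That median was 0.384 for Pex5l, below its own SD, and 0.712 for Hcn4, above its own.

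In replicate 1, where Hcn2 was low and Hcn3 high, several other marker sums were also highest. All 5 cholinergic markers were highest there, and 2 of the 3 tested were called as varying, against 0.209% of all tested genes. Lhx8 measured 34.9, 2.96 and 0.346 CPM in replicates 1, 2 and 3 (edgeR goodness-of-fit, adjusted p = 0.00455). Chat measured 28.6, 0.608 and 1.62 CPM (same test, adjusted p = 0.0352). Microglia markers summed to 39.7 CPM against 20.3 and 28.3 in replicates 2 and 3, with only Cx3cr1 of 6 genes highest in replicate 1. Astrocyte markers summed to 1176 CPM against 542 and 522 in replicates 2 and 3, with 5 of 6 genes highest in replicate 1, and oligodendrocyte markers to 405 CPM against 243 and 237, with 7 of 8. GABAergic markers summed to 693 CPM against 440 and 469, with only 3 of 6 highest in replicate 1 and most of the sum from Gad2. The thalamic list summed to 235, 142 and 142 CPM in replicates 1, 2 and 3, mostly from Rora at 191, 120 and 111 CPM. It had 3 of 5 genes highest in replicate 1: Rora, Tcf7l2 (37.5, 15.3 and 20.6 CPM) and Lef1 (6.10, 3.69 and 1.73 CPM). Prkch was highest in replicate 3, at 0.486, 2.96 and 9.34 CPM, and Gbx2 was at 0 in each library. The median of the 5 thalamic markers was 0.694, 0.419 and 1.24 CPM per kb. It was the value of Lef1 in replicates 1 and 2 and of Prkch in replicate 3, so it shows no shared rise of the list. The part of these cell types in the Hcn2 and Hcn3 values was not tested.

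Base composition was set beside the spread because the channel genes are rich in G and C. The longest Hcn2 transcript has 65.4% GC, above 99.7% of the 13627 tested genes with a matched transcript, and the first 300 coding bases reach 82.3%. Hcn3 and Hcn4 have 58.0% each and Pex5l has 47.2%. Hcn2 in replicate 1 differed from the mean of the other two libraries by −2.24 on the log2(CPM + 1) scale. For the 578 genes with 60% GC or more the median of that difference was −0.0080, with quartiles of −0.55 and 0.49. Hcn3 was at 1.503 for replicate 1 and −1.49 for replicate 2. The 2373 genes with 55% to 60% GC had medians of −0.02 and −0.21 there, with quartiles of −0.62 and 0.47 for replicate 1 and −0.78 and 0.30 for replicate 2. Hcn4 was at −0.26 and 0.09. The part of base composition in the Hcn2 and Hcn3 values was not tested.

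**Figure D2:**
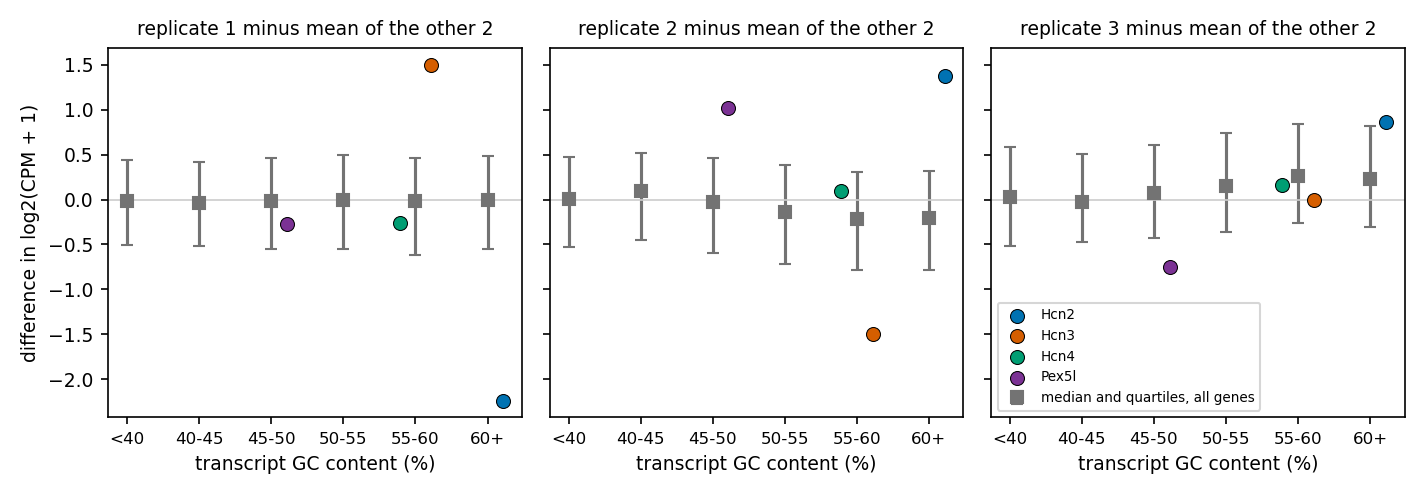
Difference in log2(CPM + 1) between 1 replicate and the mean of the other 2 (vertical axis) by GC content of the longest transcript (horizontal axis, in bands), with grey squares and bars for the median and quartiles of all tested genes and coloured circles for the members. Hcn2 at −2.24 and Hcn3 at 1.503 lie outside the quartiles of their bands in replicate 1.

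The order of the levels was read from CPM per kb of exon. Pex5l came first at 15.2 ± 6.83 CPM per kb, followed by Hcn3 at 3.43 ± 2.41, Hcn2 at 1.79 ± 1.34 and Hcn4 at 1.13 ± 0.131 CPM per kb. Over the length of its longest transcript alone Pex5l reached 32.0 ± 14.4 CPM per kb. Among the tested genes with a length these levels lay at mean percentiles of 78.5 for Pex5l, 38.9 for Hcn3, 25.3 for Hcn2 and 19.5 for Hcn4. Among all genes with a length and a count in any library they lay at 83.0, 51.4, 39.96 and 35.5 in the same order, so Hcn3 was near the middle of that wider set. Hcn2 lay at the 7.92nd percentile in replicate 1 and the 40.4th in replicate 2, where Hcn3 lay at the 57.6th and the 25.1st.

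Within each library the members were compared pair by pair as differences of log2(CPM per kb + 0.1), for 6 pairs. Pex5l exceeded Hcn3 by 2.27 ± 1.54, Hcn2 by 3.38 ± 1.49 and Hcn4 by 3.56 ± 0.62, each positive in 3 of 3 libraries and larger than its spread. The difference from Hcn3 was 1.04, 4.005 and 1.77 in replicates 1, 2 and 3, and it was 1.41 without replicate 2, 2.89 without replicate 1 and 3.29 with the longest transcript as the length of each gene. The longest transcript gave 4.44 against Hcn2 and 4.62 against Hcn4. Without replicate 1 the difference from Hcn2 was 2.55, and without replicate 3 it was 3.99. A pseudocount of 1 gave 2.61 against Hcn2 and 2.85 against Hcn4, and CPM without length correction gave 3.40, 4.96 and 4.18 against Hcn3, Hcn2 and Hcn4.

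Among the channels the neighbours in the order were not separated. Hcn3 minus Hcn2 was 1.10 ± 2.60, positive in 2 of 3 libraries, at 3.99, −1.05 and 0.38 in the order of the replicates, and −0.34 without replicate 1. Hcn2 minus Hcn4 was 0.18 ± 1.45, with −1.48, 1.22 and 0.80 in replicates 1, 2 and 3. Without length correction that difference was −0.78, so the order of Hcn2 and Hcn4 turned with the scale. Hcn3 minus Hcn4 was 1.28 ± 1.18, positive in 3 of 3 libraries, but only 0.17 in replicate 2, and without replicate 1 it was 0.67 ± 0.71, smaller than its spread. A two-sided exact permutation test that flips signs gave p = 0.25 for the 4 pairs with 1 sign throughout, the smallest p that 3 libraries allow, and 0.75 and 1.0 for Hcn3 minus Hcn2 and Hcn2 minus Hcn4.

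The 3 channel genes together varied less than Hcn2 or Hcn3 alone, which follows from the opposite directions of Hcn2 and Hcn3 and is no separate result. Summed per kb they reached 7.32, 5.39 and 6.32 CPM per kb in replicates 1 to 3, a mean of 6.34 ± 0.965 and a coefficient of variation of 15.2%, against 75.1% for Hcn2, 70.2% for Hcn3 and 11.6% for Hcn4. In summed CPM the coefficient of variation was 18.9%. Hcn3 made up 82.7%, 24.8% and 45.7% of the sum per kb in replicates 1 to 3. Hcn2 made up 3.92%, 53.4% and 34.9%, and Hcn4 13.4%, 21.9% and 19.4%. Hcn3 was thus the leading gene of the 3 in replicates 1 and 3 and Hcn2 in replicate 2.

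Against the main voltage-gated sodium, calcium and potassium channels of neurons the HCN members were low. Of 22 such genes, all at 1 CPM or more in each library, 21 exceeded Hcn2 in each library per kb, 21 exceeded Hcn4 and 19 exceeded Hcn3. That list had a median of 13.8 CPM per kb, against 4.72 for all 13627 tested genes with a length, and was led by the sodium channel genes Scn8a at 39.3 ± 6.44 and Scn2a1 at 29.5 ± 3.76 and the potassium channel gene Kcna1 at 33.3 ± 7.73 CPM per kb. Kcnb2, a delayed rectifier potassium channel gene, was the exception that lay below Hcn3 in each library. Pex5l stood inside this list, with 3 of the 22 above it and 4 below it in every library.

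Channels with a cyclic nucleotide-binding domain like that of the HCN family, or with a homology domain related to it, were closer in level. Of 14 genes 7 were at 1 CPM or more in each library, the list median was 1.39 CPM per kb, and 0 of the 9 tested were called as varying. The ether-a-go-go type potassium channel genes Kcnh1, Kcnh5 and Kcnh3 led at 7.43 ± 3.24, 6.56 ± 3.31 and 3.89 ± 1.55 CPM per kb. Kcnh1 and Kcnh5 exceeded Hcn3 in each library, and Kcnh1, Kcnh3, Kcnh5 and Kcnh7 exceeded Hcn2. Hcn4 was exceeded in each library by 6 of the 14, Kcnh1, Kcnh2, Kcnh3, Kcnh4, Kcnh5 and Kcnh7. The cyclic nucleotide-gated channel genes Cnga1 and Cngb3 had no counts in any library, which allows up to 0.346 CPM in replicate 3. Hcn2, Hcn3 and Hcn4 exceeded Cnga3 and Cngb1 in each library.

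Among 15 genes of other channels that act near rest, which set the resting and rebound properties together with Ih, 14 were at 1 CPM or more in each library and the list median was 5.34 CPM per kb. The leak channel gene Kcnk1 measured 30.5 ± 9.28 CPM per kb, the G protein-activated inward rectifier Kcnj3 22.9 ± 3.13 and the inward rectifier Kcnj4 11.0 ± 3.49 CPM per kb. Of these genes 1 of 15 was called, against 0.209% of all tested genes. It was the leak potassium channel gene Kcnk10, with 49.7, 1.58 and 5.65 CPM in replicates 1, 2 and 3 (edgeR goodness-of-fit, adjusted p = 0.00621). Kcnk10 was thus high in replicate 1 and low in replicate 2, as Hcn3 was, and the call was lost without replicate 1 (adjusted p = 0.915) and without replicate 2 (adjusted p = 0.209). Leaving out replicate 1 or replicate 2 also cut the calls over all genes, from 32 to 8 and 5.

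**Figure D3:**
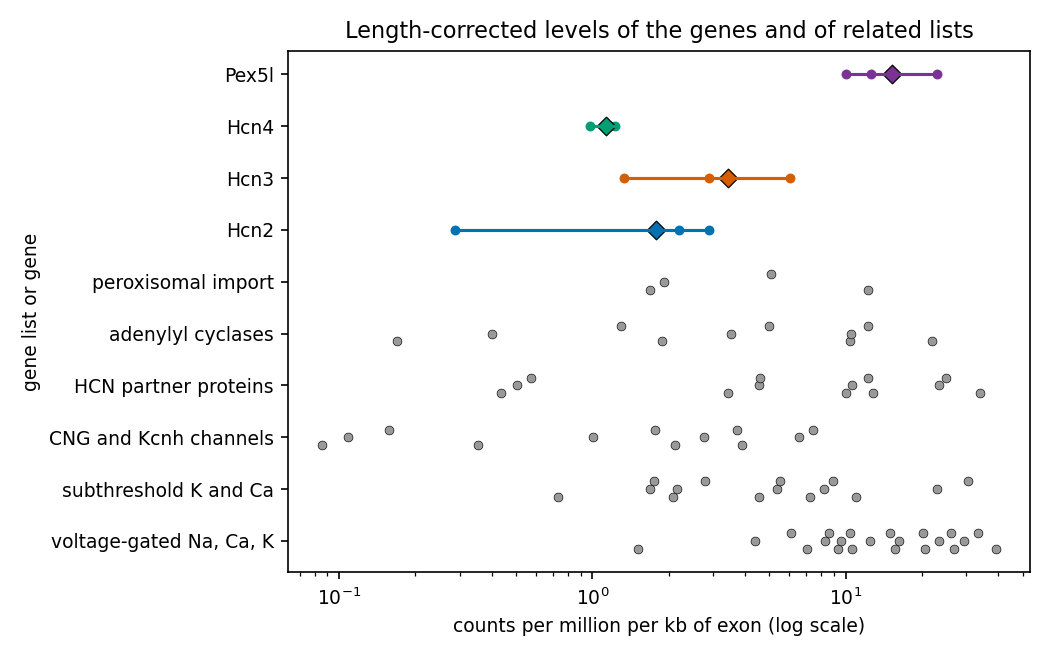
CPM per kb of exon (log axis) for each of the 4 genes (small circles for the libraries, a line for their range, a diamond for the mean) and the mean of each gene in 6 related lists (grey circles). The 3 genes with no counts in any library are not drawn, and the HCN genes lie to the left of nearly all voltage-gated channel genes while Pex5l lies among them.

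Other proteins known to bind or modify HCN channels were mostly present. Of 14 partner genes 11 were at 1 CPM or more in each library, the list median was 7.33 CPM per kb, and 0 of the 12 tested were called. Nedd4l, a ubiquitin ligase, led at 34.1 ± 6.53 CPM per kb, ahead of Vapa, a tether of the endoplasmic reticulum, at 24.9 ± 5.67 and of the p38 kinase gene Mapk14 at 23.5 ± 5.32. These 3 exceeded Pex5l in each library, and Pex5l exceeded 7 of the 14, including the tyrosine kinase gene Src and its activating phosphatase gene Ptpra. Kcne2, the gene of a small accessory subunit, was at 0 counts in replicates 1 and 2 and at 2.31 CPM in replicate 3. Cav3, the muscle caveolin, had no counts in any library.

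Cyclic AMP, the ligand that HCN2 and HCN4 sense, is made by adenylyl cyclases. Of 10 adenylyl cyclase genes 8 were at 1 CPM or more in each library, with a list median of 4.26 CPM per kb, and 0 of the 9 tested were called. The calcium-stimulated enzyme gene Adcy1 led at 22.03 ± 5.98 CPM per kb, followed by Adcy2 at 12.3 ± 3.96 and Adcy5, the main striatal form, at 10.5 ± 2.62 CPM per kb.

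Pex5l is the relative of Pex5, the receptor that brings proteins into peroxisomes. Pex5 measured 5.10 ± 1.59 CPM per kb, and the other import genes Pex13, a docking protein, and Pex7, a second receptor, measured 12.3 ± 2.80 and 1.91 ± 0.596 CPM per kb. All 4 genes of the import list were at 1 CPM or more in each library and 0 were called, with a list median of 3.505 CPM per kb. Pex5 was highest in replicate 1, at 25.6, 21.4 and 13.3 CPM in replicates 1, 2 and 3, where Pex5l was highest in replicate 2.

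The genes whose levels over the libraries were most like each member were taken from the 71 tested genes of the 6 lists, by the root-mean-square difference of log2(CPM + 1) after centring each gene on its mean of 3 libraries. For Hcn2 they were Kcnh6, a potassium channel gene of the ether-a-go-go superfamily, at 0.055, with 0.216, 6.03 and 4.50 CPM in replicates 1, 2 and 3, and Grasp, the gene of the HCN2-binding scaffold tamalin, at 0.36, with 10.5, 32.2 and 32.0 CPM. For Hcn3 they were Lrmp, an HCN4 regulator, at 0.27, with 5.34, 0 and 1.62 CPM, and the sodium channel gene Scn3a at 0.34, with 210, 85.5 and 173 CPM. For Hcn4 they were Kcnj3 at 0.044 and Scn2a1 at 0.075. For Pex5l they were Pex7 at 0.22 and the olfactory channel gene Cnga2 at 0.25. With 3 libraries such likeness is a description of a few points, and several of these genes lie near 1 CPM.

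**Figure D4:**
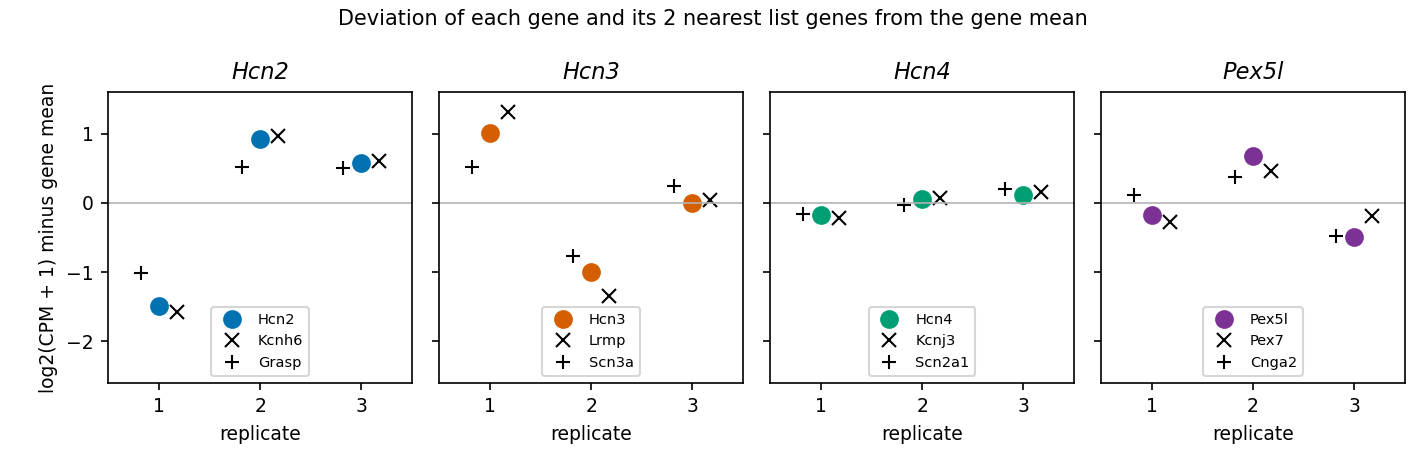
Log2(CPM + 1) minus the gene's mean (vertical axis) in replicates 1, 2 and 3 for each member (coloured circle) and its 2 nearest genes of the lists (cross and plus). Hcn2 is lowest and Hcn3 highest in replicate 1, and Hcn4 stays near 0.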

How the data were processed

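RNA captured with EGFP-tagged ribosomes was sequenced in 3 libraries. The submitters' processing notes name STAR 2.0.0e, HTSeq and the build mm10, and the deposited files hold whole-number counts per gene that the authors did not normalize. Annotation, strand setting and library kit are not given in the sources used here. HTSeq's summary classes stayed out of the totals: 25.6% to 45.3% of entries had no feature and 16.5% to 32.7% aligned to more than 1 place. A count of 0 allows up to 3 counts, 0.122 to 0.346 CPM. The libraries differed from each other by far more than sampling noise (chi-square of 91.6 to 175 per gene) and each counts as 1 replicate. Whether a library pooled animals was not stated, so p-values measure the spread between these samples.

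CPM used all gene counts. Lengths and GC come from GENCODE M21 by symbol, for 88.9% of the 15336 tested genes, and all 137 entries of the 16 gene lists were matched by symbol. Variation between libraries was assessed in R 4.3.3 with edgeR 4.0.16 (TMM, intercept-only model, trended dispersion, chi-square goodness of fit on 2 degrees of freedom, Benjamini-Hochberg adjustment, threshold 0.05), since 1 group allows no contrast. DESeq2 1.42.0, Python 3.11.15, numpy 2.4.6, pandas 2.3.3, SciPy 1.17.1 and matplotlib 3.10.9 did the rest. Named genes are the members, the 3 list genes highest per kb, called list genes and the 2 nearest genes of each member; further list genes were named after their values were seen. The members and lists were chosen with earlier results of these data known. Some genes of the channel family and of the lists are not reported here. Alternatives covered scaling, dispersion, filters, lengths, pseudocounts and leaving out each replicate.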

Additional observations from a re-analysis of the deposited data

How the results depend on the processing

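The count of 32 genes called as varying was 780 with a common dispersion and 21 as DESeq2 dispersion outliers, and ranged from 5 to 22 with 1 replicate left out. None of the 4 members was called under any of the edgeR alternatives or as a DESeq2 outlier. Hcn3 minus Hcn2 ranged from −0.34 to 2.18 with 1 replicate left out and Hcn2 minus Hcn4 from −0.34 to 1.01, and Hcn2 minus Hcn4 was −0.78 without length correction. Hcn3 minus Hcn2 turned negative without replicate 1, and Hcn2 minus Hcn4 without replicate 2 or 3; with all libraries both differences were smaller than their spread. The other 32 of 36 alternative differences kept their sign. Among genes with a count in any library Hcn4 moved from the 19.5th to the 35.5th percentile, Hcn2 from the 25.3rd to the 39.96th, Hcn3 from the 38.9th to the 51.4th and Pex5l from the 78.5th to the 83.0th. Without length correction Hcn4 was at the 30.4th and Pex5l at the 89.5th. Of 24 alternative CPM means 1 moved by more than its SD, Hcn4 at 8.16 CPM with totals that leave out the 3 most abundant genes. No comparison between groups was possible because there is 1 group. At 17 counts, Hcn2 in replicate 1 is the least precise value.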
